A study of Mus musculus with 4 samples.

Results

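Tubb2a, Tubb3, Tubb4b and Tuba1a are 4 tubulin genes that neurons use, and their ribosome footprints were followed in 4 libraries of mouse neurons. They were selected by their symbols, joined through the transcript identifiers, and are 4 of the 6352 transcripts in the table. They were chosen with earlier results of these same libraries known, so their levels and differences are a description and carry no test. The study profiled primary cultured cortical neurons of WT and Ltn1 KO mice that received scramble or Ttc3 RNAi, and harringtonine at 5 µg/ml for 3 min was given to all cultures. Harringtonine lets ribosomes accumulate where translation starts. LTN1 is an E3 ligase of ribosome-associated quality control, and TTC3 is another E3 ligase, whose accumulation in Ltn1 KO neurons the study was about. The groups were WT with scramble RNAi, WT with Ttc3 RNAi, Ltn1 KO with scramble RNAi and Ltn1 KO with Ttc3 RNAi, each with 1 library and no replicate. The KO allele, the age of the mice and the number of animals or cultures behind a library are not given in the labels used here.

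The libraries are called WT SC and WT TTC, and KO SC and KO TTC, after their genotype and code. Their labels conflict, because by title and characteristics the TTC codes stand for scramble RNAi and the SC codes for Ttc3 RNAi, while the letters themselves read the other way. All comparisons are therefore given by code. Ltn1, the deleted gene, had 10 and 2 reads in the WT libraries (SC and TTC) and 37 and 0 in the KO libraries, so the library labelled KO SC went against its genotype label at this site. Whether the site lies in the deleted part of the gene is not given in the sources used here, and KO and WT below mean the libraries labelled so. Ttc3, the RNAi target, had 3 and 2 reads in the SC libraries of WT and KO, and 0 in those coded TTC.

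Values are RPM, a read count scaled by the authors to the total reads of the library. They step in whole reads, which gave library totals from 1460425 to 3655827 reads, of which the listed sites held 6.06% to 6.85%. The worth of 1 read was 0.477 and 0.685 RPM in the WT libraries (SC and TTC), and 0.374 and 0.274 RPM in the KO libraries. Levels are given with exact Poisson 95% intervals and ratios with exact conditional binomial 95% intervals, and both cover counting error only. Between libraries, reads varied more than counting error allows (mean Pearson statistic between 3.175 and 5.117 over the 4 comparisons), so the intervals are too narrow to compare conditions. In bulk cultures such as these, fewer cells of a type, less RNA per cell and less initiation per RNA cannot be told apart. The values are footprints, and no RNA levels were used beside them.

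Microtubules are built from heterodimers of α- and β-tubulin, and each kind of chain is encoded by several genes whose proteins are called isotypes. Neurons fill axons and dendrites with microtubules and are rich in the β isotypes of Tubb2a, Tubb2b and Tubb3, of which Tubb3 is widely used as a marker of neurons, and in the α isotype of Tuba1a, which is prominent in developing neurons. Tubb4b is a β isotype found in many cell types and in cilia. Cells also adjust tubulin mRNA to the amount of free tubulin, through TTC5, a protein that binds the start of the nascent tubulin chain on the ribosome.

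In the RefSeq annotation of GRCm38.p6, Tubb2a lies on chromosome 13 from 34074278 to 34078008, Tubb3 on chromosome 8 from 123411553 to 123422015, Tubb4b on chromosome 2 from 25222158 to 25224702 and Tuba1a on chromosome 15 from 98949847 to 98953501. Tubb2b, the closest copy of Tubb2a, is its neighbour on chromosome 13, and Tuba1b and Tuba1c are on chromosome 15 with Tuba1a. These neighbours encode closely similar proteins, so short footprints may match more than 1 gene, but their coding sequences were not at hand and were not compared. How such reads were assigned is not given in the sources used here, and the split of reads between Tubb2a and Tubb2b, and between Tuba1a, Tuba1b and Tuba1c, is uncertain. Whether other tubulin genes, Tubb4b among them, also share reads was not checked. RefSeq promoter windows of 300 bases, with 250 bases before the start, were at hand for all 4 genes, and the letters TATAA, chosen as a motif after the sequences were seen, occurred in each. The stretches are shown for Tubb2a, Tubb3 and Tuba1a, which carry these letters ahead of the annotated start. They read 5′ to 3′ on the gene's strand, with the motif in capitals:
Tubb2a, minus strand, chr13:34078026-34078055: gactgggcggtccccgggTATAAaaggcgg
Tubb3, plus strand, chr8:123411505-123411534: gagggcggggcagcctctTATAAgagggcg
Tuba1a, minus strand, chr15:98953568-98953597: catggtgacagagctgtaTATAAggagccg
The motif began 29 bases before the annotated start in Tubb2a, 30 bases before it in Tubb3 and 78 bases before it in Tuba1a. In Tubb4b it began 18 bases after the annotated start. On either strand these letters occurred in 24.9% of 32851 promoter windows and in 12.8% of the 6460 windows of symbols in the table, and in 1 of the 5 other tubulin genes with a window (Tuba4a). Tubb5, at 287 to 361 RPM over the libraries, did not carry the letters, and Tuba4a had 13.01 to 42.5 RPM. A match of 5 letters is a description and not a binding site, and a link to footprint level was not tested.

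Tubb2a and Tubb3 had the highest footprint levels of all 6352 transcripts in every library. Their order changed between libraries. Tubb2a had 1267 RPM (WT SC, 2656 reads), 969.6 RPM (WT TTC, 1416 reads), 1113 RPM (KO SC, 2975 reads) and 1129 RPM (KO TTC, 4128 reads). It ranked 1 in WT SC and KO TTC and 2 in the others, and WT TTC was its lowest library. Tubb3 had 1057 RPM (WT SC, 2215 reads), 1043 RPM (WT TTC, 1523 reads), 1278 RPM (KO SC, 3415 reads) and 1079 RPM (KO TTC, 3945 reads). Its KO SC interval of 1235 to 1321 RPM, which covers counting error only, lay above those of the other libraries. Within a library, the ratio of Tubb2a to Tubb3 was 1.199 (WT SC) and 0.9297 (WT TTC), against 0.871 (KO SC) and 1.05 (KO TTC). The interval reached 1 in WT TTC, so the order of the pair was not resolved there, and in KO TTC it began at 1.001. Values are per site and not per length, and the window counted around a start is not given in the sources used here, so an order of genes is an order of footprints at sites.

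Tuba1a, the main α-tubulin gene here, had 259 RPM (WT SC, 542 reads), 235.5 RPM (WT TTC, 344 reads), 306 RPM (KO SC, 818 reads) and 329 RPM (KO TTC, 1204 reads). Both KO libraries were above both WT libraries. Its rank was 17 (WT SC) and 25 (WT TTC), against 11 (KO SC) and 15 (KO TTC). A transcript annotated as Gm49450 (ENSMUST00000134214.2) had nearly the same reads, with 539, 328, 752 and 1169 in the same order. The ratio of its reads to those of Tuba1a lay between 0.919 and 0.995, and the interval held 1 in each library. Whether the same reads were counted for both could not be checked, because neither reads nor a position for Gm49450 were at hand.

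Tubb4b was the gene of the set that differed most between libraries. It had 75.4 RPM (WT SC, 158 reads), 172 RPM (WT TTC, 251 reads), 35.5 RPM (KO SC, 95 reads) and 59.1 RPM (KO TTC, 216 reads). The intervals of the KO libraries, 28.7 to 43.4 RPM and 51.5 to 67.5 RPM, lay below that of WT TTC, 151 to 195 RPM, and the intervals of WT SC and KO TTC overlapped. Its rank moved from 46 in WT TTC to 336 in KO SC, with 121 in WT SC and 182 in KO TTC. The highest and lowest libraries differed 4.84-fold, against 1.31-fold for Tubb2a, 1.23-fold for Tubb3 and 1.40-fold for Tuba1a. Taking the 219 transcripts that averaged 50 RPM or more, the median of this range was 1.52-fold. It was smaller than that of Tubb4b in 99.5% of them, and smaller than that of Tubb3 in 8.22%. Such a range widens with counting error, which is larger for transcripts with fewer reads than Tubb3. Because the genes were chosen with earlier results known, these places are a description only.

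**Figure D1:**
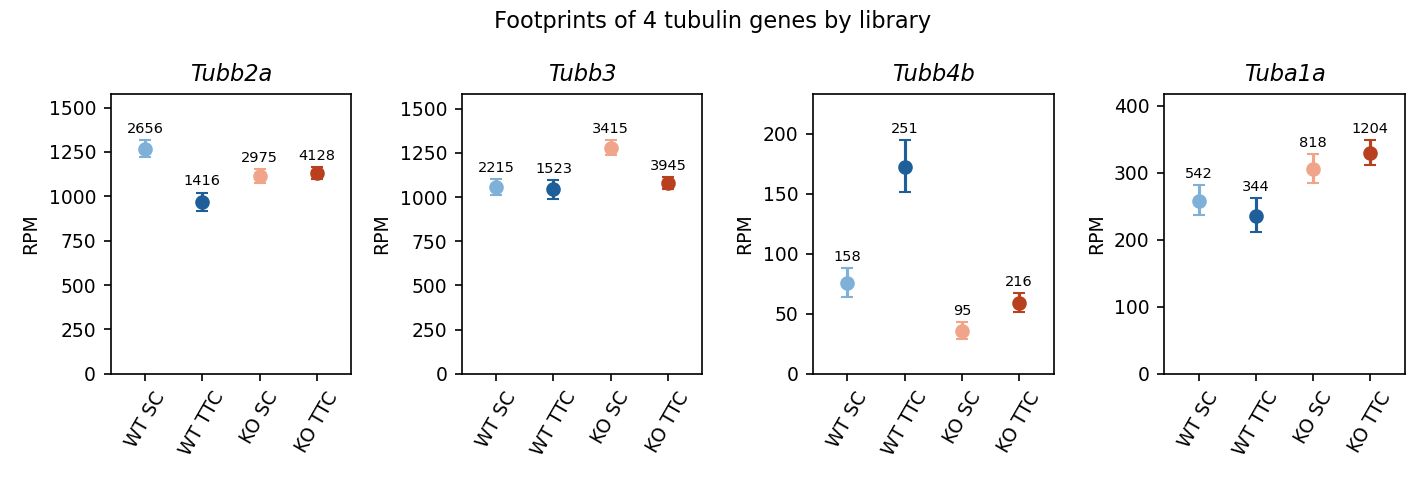
Footprint levels of Tubb2a, Tubb3, Tubb4b and Tuba1a in RPM (vertical axes, each from 0 and scaled to its gene) in the 4 libraries (horizontal axes), with exact Poisson 95% intervals as bars and reads printed above. Tubb4b spans 35.5 to 172 RPM, while Tubb3 stays between 1043 and 1278 RPM.

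**Figure D2:**
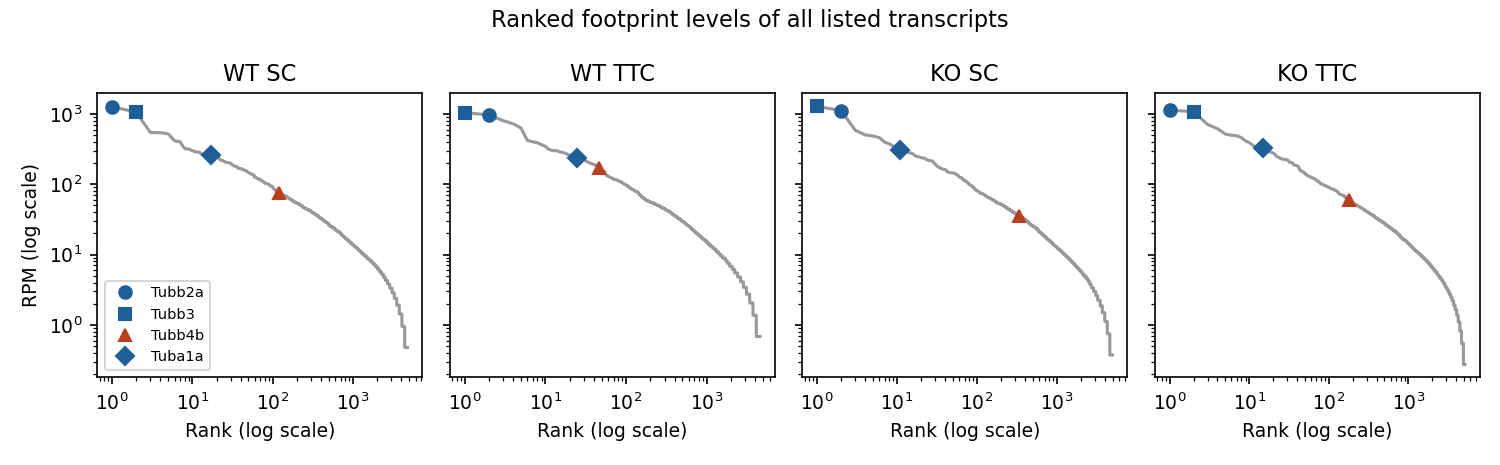
RPM of every listed transcript with reads (vertical axes, log scale) against its rank (horizontal axes, log scale) in each library as a grey line, with the 4 genes as symbols. Tubb2a and Tubb3 hold the first places in every library, and Tubb4b lies between rank 46 and rank 336.

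The first comparison asked how footprints in Ltn1 KO neurons differed from those in WT, once in the libraries coded SC and once in those coded TTC. A transcript is called lower or higher where RPM differed at least 2-fold with at least 20 reads over the pair, which is a rule of size and not a test. Of the 4 genes, 1 was called lower and 0 higher in either pair, and it was Tubb4b in both. Over all transcripts, 8.65% of the 2577 with enough reads were called lower in the SC pair and 4.77% higher. For the TTC pair, 6.18% of 2800 were called lower and 9.68% higher. The selection used this contrast, so nothing is read from the count.

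Tubb4b in KO was 0.472 times its WT level in the SC pair (0.362 to 0.612), a log2 ratio of -1.08. In the TTC pair it was 0.344 times the WT level (0.285 to 0.414), a log2 ratio of -1.54. A lower ratio was found for 7.41% (SC pair) and 1.14% (TTC pair) of transcripts. With median-of-ratios factors in place of RPM, the log2 ratio of the SC pair was -0.95, under the 2-fold rule, and that of the TTC pair was -1.48. Of the 2310 transcripts with enough reads in both pairs, 0.909% were called lower in both and 0.952% higher in both. The library labelled KO SC, with its Ltn1 reads, is on 1 side of the first ratio and not of the second.

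Tuba1a was higher in KO in both pairs, 1.18-fold (1.06 to 1.32) in the SC pair and 1.40-fold (1.24 to 1.58) in the TTC pair. Both are far from the 2-fold rule, and no tubulin was called higher in either pair. Tubb3 was 1.21-fold higher in KO in the SC pair (1.15 to 1.28), and in the TTC pair its ratio of 1.04 had an interval that held 1 (0.975 to 1.10). Tubb2a was lower in KO in the SC pair, at 0.878 times the WT level (0.833 to 0.926), and higher in the TTC pair, at 1.16 times (1.10 to 1.24). The median log2 ratio over all transcripts tested was -0.11 (SC pair) and -0.02 (TTC pair), and the middle 90% of transcripts ran from -1.26 to 0.97 and from -1.08 to 1.65.

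Of the other tubulin genes, 8 of 16 listed are in the table and 5 had at least 20 reads in both pairs and in both codes of a genotype. None of these 5 was called in either KO comparison, and their median log2 ratios were 0.04 (SC pair) and 0.21 (TTC pair). Tubb4a, a β isotype of neurons and oligodendrocytes, was at 0.784 (0.646 to 0.952) and 0.780 (0.648 to 0.943) times the WT level. Its levels were 102 RPM (WT SC), 118 RPM (WT TTC), 80.1 RPM (KO SC) and 91.9 RPM (KO TTC). Tubb2b, which is prominent in developing cortex, was 1.25-fold higher in KO in the SC pair (1.14 to 1.38) and at 0.978 in the TTC pair (0.905 to 1.06), where the ratio was above 1 under both other scalings. Tubb5, a widely used β isotype, had ratios of 1.03 and 1.21, the second with an interval of 1.08 to 1.34. Tuba4a had KO over WT log2 ratios of -0.29 and 0.21 and Tuba1b of 0.44 and 0.41, all with intervals that held 0. Tuba1b had 6 to 26 reads in a library, Tubb6 1 to 7, Tubg1, a γ-tubulin of microtubule nucleation, 0 to 9, and Tuba1c 0 to 2.

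**Figure D3:**
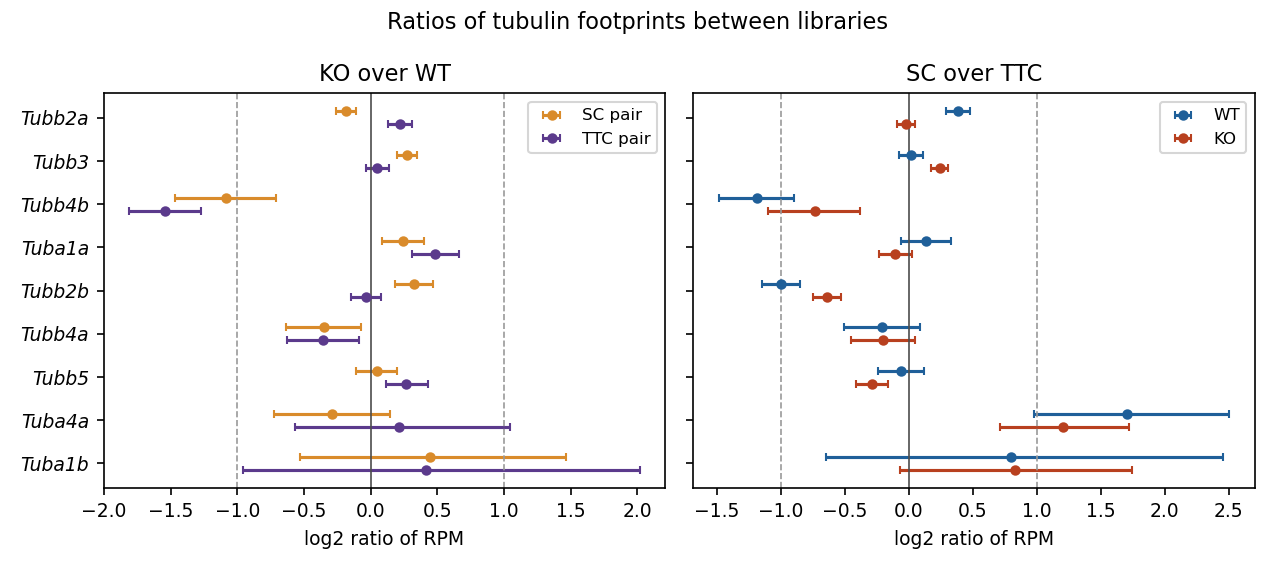
Log2 ratios of RPM (horizontal axes) for the tubulin genes with at least 20 reads over a pair (vertical axes), KO over WT on the left and SC over TTC on the right, with exact conditional 95% intervals as bars and dashed lines at the 2-fold rule. On the left Tubb4b lies at -1.08 and -1.54, apart from the other tubulins, and on the right Tuba4a lies beyond the right-hand line in both genotypes.

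The second comparison set the libraries coded SC against those coded TTC within a genotype, which is the RNAi comparison, given by code because of the conflict in the labels. These ratios share their libraries with the KO comparisons and are not independent of them. Over all transcripts, 10.2% of 2226 transcripts were called lower and 8.76% higher in WT, and 14.9% of 3030 were called lower and 5.28% higher in KO. Calls made in both genotypes came to 3.34% lower and 1.48% higher of the 2157 transcripts with enough reads. Tubb4b was lower in SC than in TTC, at 0.439 times in WT (0.357 to 0.537) and 0.602 times in KO (0.468 to 0.769), and only the first was called. Tubb2a was 1.31-fold higher in SC in WT (1.22 to 1.40), and in KO its ratio of 0.986 had an interval that held 1. Tubb3 had a ratio of 1.01 in WT, with an interval that held 1, and was 1.18-fold higher in SC in KO (1.13 to 1.24). For Tuba1a the interval held 1 in both genotypes, with ratios of 1.10 and 0.929.

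Tuba4a and Tubb2b, both outside the selected set, differed by code in both genotypes. Tuba4a, an α isotype, had 42.5 RPM (WT SC), 13.01 RPM (WT TTC), 34.8 RPM (KO SC) and 15.04 RPM (KO TTC). It was 3.26-fold higher in SC in WT (1.97 to 5.67) and 2.31-fold in KO (1.64 to 3.29), and was called in both. Tubb2b had 316 RPM (WT SC), 631 RPM (WT TTC), 396 RPM (KO SC) and 616.5 RPM (KO TTC). Both SC libraries were below both TTC libraries, at 0.501 times in WT and 0.643 times in KO, short of the 2-fold rule.

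Scaling of the libraries bears on these counts. With the same sum over the listed sites, the median log2 ratio moved by 0.07 (SC pair), 0.03 (TTC pair), 0.10 between the WT libraries and 0.14 between the KO libraries. With median-of-ratios factors the shifts were 0.14, 0.06, 0.10 and 0.17. Lower calls made up 64.5% of calls in the SC pair by RPM and 48.3% with median-of-ratios factors. Between the KO libraries they made up 73.8% by RPM, 60.5% with the same sum and 57.95% with median-of-ratios factors. The KO over WT ratio of each of the 4 genes had the same direction under all of these scalings, and so did its SC over TTC ratio in WT. For Tubb2a in the SC pair, however, the log2 KO over WT ratio shrank from -0.19 by RPM to -0.05 with median-of-ratios factors. That value lay outside the RPM counting interval of -0.26 to -0.11. In KO, the SC over TTC log2 ratios of Tubb2a and Tuba1a, -0.02 and -0.11 by RPM, were above 0 under both other scalings.

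Shares within a library do not depend on how libraries are scaled. Tubb2a made up 40.8% (WT SC) and 29.98% (WT TTC) of the β-tubulin reads of 7 genes, against 34.8% (KO SC) and 33.8% (KO TTC). Tubb3 made up 34.0%, 32.2%, 39.9% and 32.3% in the same order. Together these genes held most of the β-tubulin footprints in each library. Tubb4b made up 2.43% of them (WT SC, exact binomial 95% interval 2.07 to 2.83), 5.31% (WT TTC, 4.69 to 5.99), 1.11% (KO SC, 0.899 to 1.35) and 1.77% (KO TTC, 1.54 to 2.02). In either code its KO share was below its WT share, so these libraries also differed relative to the other β-tubulins. The KO and WT intervals did not overlap, but they cover counting error only, and a difference between genotypes was not tested. Its ratio to Tubb4a was 0.738 (WT SC) and 1.46 (WT TTC), against 0.444 (KO SC) and 0.643 (KO TTC), so it exceeded Tubb4a only in WT TTC. Tuba1a held 83.9%, 93.2%, 87.1% and 94.1% of the reads of 4 α-tubulin genes, and Tuba4a held most of the rest, with 13.8%, 5.15%, 9.90% and 4.30%. Gm49450 was not counted among these genes, and the uncertain split of reads between Tuba1a, Tuba1b and Tuba1c bears on the shares.

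The β-tubulin sum varied less between libraries than any single β-tubulin gene. The β-tubulin genes summed to 3105 RPM (WT SC), 3234 RPM (WT TTC), 3201 RPM (KO SC) and 3338 RPM (KO TTC). The KO over WT ratio of that sum was 1.03 in both pairs, with intervals of 0.998 to 1.07 that held 1. With the same sum and with median-of-ratios factors it was 1.09 and 1.14 in the SC pair, and 1.06 and 1.08 in the TTC pair. None of these intervals held 1, but they cover counting error only. The α-tubulin genes summed to 308 RPM, 253 RPM, 351 RPM and 349.9 RPM in the same order, 1.14-fold higher in KO in the SC pair (1.03 to 1.26) and 1.39-fold in the TTC pair (1.23 to 1.56). Because reads may be split between Tubb2a and Tubb2b, their sum was also taken. It was 1583 RPM, 1600 RPM, 1509 RPM and 1746 RPM, and Tubb2a held 80.1%, 60.6%, 73.8% and 64.7% of it. The summed pair in KO was 0.953 times WT in the SC pair (0.910 to 0.999) and 1.09 times in the TTC pair (1.04 to 1.14). The first ratio was 1.00 with the same sum over the listed sites and 1.05 with median-of-ratios factors, so the direction of the summed pair in the SC pair depended on the scaling.

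**Figure D4:**
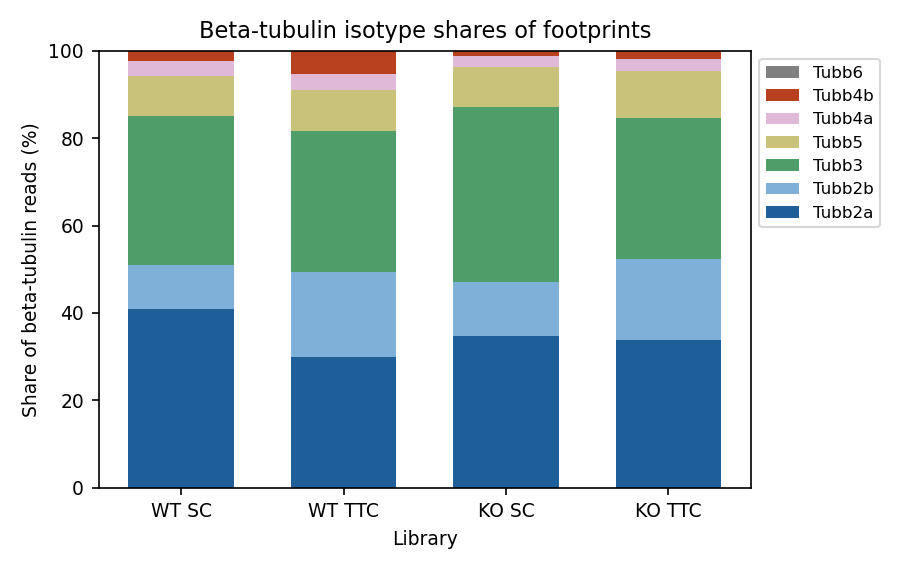
Share of the β-tubulin reads of a library held by each of 7 genes (vertical axis, percent) in the 4 libraries (horizontal axis). Tubb4b, the red segment, ranges from 1.11% (KO SC) to 5.31% (WT TTC), and Tubb2b takes a larger share in the TTC libraries than in the SC libraries.

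Cell type markers were set beside these values, since the cultures may hold cells other than neurons. All 13 neuron markers are in the table, of which Tubb3 is one. The other 12 summed to 914.5 RPM (WT SC), 889 RPM (WT TTC), 974 RPM (KO SC) and 1039 RPM (KO TTC), and each of them except Elavl4 had reads in every library. Astrocyte markers (8 of 9 in the table) summed to 193 RPM, 235 RPM, 114 RPM and 175 RPM, and oligodendrocyte markers (8 of 11) to 38.6 RPM, 93.8 RPM, 12.0 RPM and 46.5 RPM. Both sums were highest in WT TTC and lowest in KO SC, as Tubb4b was, and their part in the result for Tubb4b was not tested. Gfap, the intermediate filament of astrocytes, went from 18.1 to 1.87 RPM (WT SC to KO SC) and from 19.2 to 7.11 RPM (WT TTC to KO TTC). Of the 5 astrocyte markers with enough reads, 1 was called lower and 0 higher in either pair, and the median log2 ratios were -0.87 (SC pair) and -0.39 (TTC pair). For oligodendrocyte markers, calls of lower came to 2 of 3 (SC pair) and 2 of 6 (TTC pair), with 0 higher. Not all went down, since Olig1 was 1.76-fold higher in KO in the TTC pair and Olig2 had a ratio of 0.980 in the SC pair. Mbp, Cspg4 and Gpr17 of the oligodendrocyte list and Aqp4 of the astrocyte list were at 0 in KO SC. In WT SC, Gpr17, Aqp4 and Gja1 were at 0. Of the neuron markers, 1 of 11 was called lower in the SC pair (Elavl3) and 1 of 12 higher in the TTC pair (Nefl). For scale, calls over all transcripts came to 8.65% lower and 4.77% higher (SC pair), and 6.18% and 9.68% (TTC pair). With so few markers in a list, nothing is read from these counts. None of 8 microglia markers is in the table, and the single endothelial and fibroblast marker, Dcn, reached at most 1.496 RPM. The 2 proliferation markers in the table, Top2a and Pcna, summed to between 16.7 and 24.7 RPM.

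**Figure D5:**
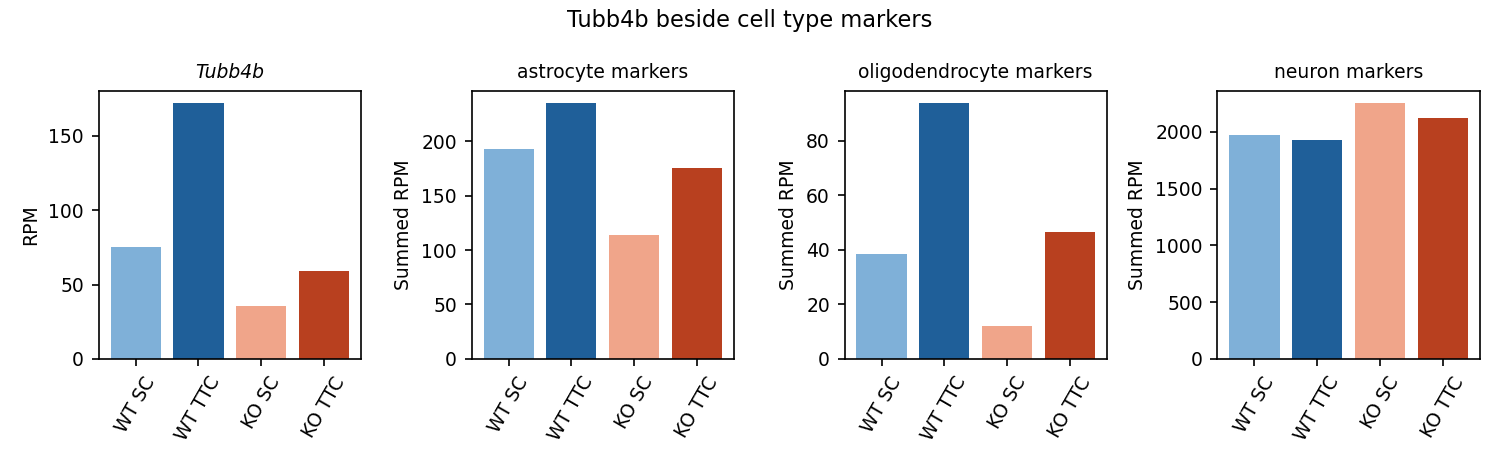
RPM of Tubb4b and summed RPM of the astrocyte, oligodendrocyte and neuron markers (vertical axes, each from 0) in the 4 libraries (horizontal axes); the neuron sum includes Tubb3. Tubb4b and both glial sums are highest in WT TTC and lowest in KO SC, while the neuron sum lies between 1932 and 2252 RPM.

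The transcripts whose pattern over the 4 libraries was nearest to each gene were looked for in the same 219, by Euclidean distance of centred log2(RPM + 1). For Tubb2a they were Stmn1, Ubb and Sucla2, at distances of 0.07, 0.12 and 0.14 against a median of 0.55. Stmn1, which encodes the tubulin-binding protein stathmin, had 323 RPM (WT SC), 259 RPM (WT TTC), 278 RPM (KO SC) and 284.5 RPM (KO TTC). For Tubb3 they were Clip3, Slc25a3 and Tmbim6, at 0.04, 0.10 and 0.11 against a median of 0.54. For Tubb4b the nearest was Ckb, the brain-type creatine kinase, at 0.52 against a median of 1.56, with 57.2 RPM, 80.8 RPM, 23.2 RPM and 41.3 RPM. Ubqln1 and Sdc3 followed at 0.67 and 0.74. These distances are larger than those of the other genes, but they are not scaled to the range of a gene. That range was 2.24 in log2 for Tubb4b, against 0.29 to 0.48 for the other selected genes. For Tuba1a, the nearest was Gm49450, at 0.08 against a median of 0.61, and R3hdm4 lay at 0.09. With 4 libraries such likeness is a description only.

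Genes that act on tubulin were counted in the KO comparisons from lists chosen with earlier results known. Of 23 tubulin folding genes, which include the CCT chaperonin, prefoldin and the tubulin cofactors, 16 had enough reads in each pair. In the SC pair 2 were called lower and 0 higher, with a median log2 ratio of -0.05. In the TTC pair 0 were called lower and 2 higher, with a median of 0.02. Both medians were close to those of all transcripts. Calls over all transcripts came to 8.65% lower and 4.77% higher (SC pair), and 6.18% and 9.68% (TTC pair), so nothing is read from these counts. Tbce, a cofactor that handles α-tubulin, was called in opposite directions, from 7.63 to 2.99 RPM in the SC pair and from 2.74 to 6.57 RPM in the other pair. Its partner Tbcb was called lower in the SC pair, from 8.11 to 2.24 RPM, and Arl2, a small GTPase that works with the cofactors, was called higher in the TTC pair, from 4.11 to 10.1 RPM. Cct5, a chaperonin subunit, was higher in KO in both pairs without being called, 1.47-fold (1.15 to 1.87) and 1.59-fold (1.17 to 2.20). Cct4, another subunit, had ratios of 1.41 and 0.928.

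Of 39 microtubule-associated genes, 22 had enough reads in the SC pair, with 2 called lower and 1 higher, and 25 in the TTC pair, with 1 called lower and 1 higher. Their median log2 ratios were -0.13 and 0.14. The shares over all transcripts were 8.65% lower and 4.77% higher (SC pair), and 6.18% and 9.68% (TTC pair), so nothing is read from these counts. Dpysl2, which encodes the tubulin-binding protein CRMP2 of growing axons, was called higher in both pairs, from 8 to 24 reads and from 3 to 19 reads. That is 2.35-fold (1.02 to 6.06) and 2.53-fold (0.745 to 13.4), and the second interval held 1. Crmp1, of the same family, was called lower in the SC pair, from 18.1 to 7.48 RPM, and went from 26.7 to 32.5 RPM in the TTC pair. Clasp2, which binds growing microtubule ends, was called lower in the SC pair, from 21.9 to 9.35 RPM, and went from 24.6 to 13.7 RPM in the TTC pair without being called. Mapre2, an end-binding protein, was called lower in the TTC pair, from 8.22 to 3.01 RPM. Map6, which stabilises microtubules, had ratios of 1.40 (1.07 to 1.84) and 0.974.

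Of 21 tubulin modification genes, 4 had enough reads in the SC pair and none was called, and 5 had enough in the TTC pair, with 2 called lower and 0 higher. The shares over all transcripts were 8.65% lower and 4.77% higher (SC pair), and 6.18% and 9.68% (TTC pair). The median log2 ratios of the modification genes were 0.02 and -0.13. The genes called were Sirt2, a tubulin deacetylase also known from oligodendrocytes, from 21.2 to 8.48 RPM, and Ttl, the tubulin tyrosine ligase, from 6.85 to 2.74 RPM with 10 reads in each library and an interval of the ratio that held 1. Sirt2 in the SC pair went from 4.29 to 5.99 RPM, and Ttl had 0 reads there. The lists for tubulin autoregulation (5 of 7 in the table), the γ-tubulin ring complex (4 of 17) and microtubule severing (3 of 8) had 0 members with 20 reads over a KO and WT pair, so differences in them were not detectable at this depth.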

How the data were processed

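The authors deposited RPM values for ribosome footprints at initiation sites in 4 libraries. Bowtie, SAMtools and bedtools are named in the submitters' processing notes, with GRCm38/mm10 as the build. Versions, annotation, the window counted and the treatment of reads that match several genes are not given in the sources used here. Every value was a whole multiple of what 1 read is worth (100% of values, tolerance 1e-06), and reads were recovered from these steps. Symbols came from the gene list published with the study through transcript identifiers (6351 of 6352 transcripts, 6342 symbols, 38 identifiers mended).

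The genes and the 13 gene lists were chosen with earlier results of these data known. Genes named were the 4 genes, the other tubulins, the 3 nearest patterns of each, and from each list the genes called in both pairs or with extreme ratios. Some items that this rule or the lists hold are not reported here. With 1 library per condition, no test result is given for single genes. Ratios carry exact conditional binomial intervals and shares exact (Clopper-Pearson) ones, all at 95%. An additive fit of genotype and code with edgeR's quasi-likelihood test, tested on simulated data, was an alternative to the 2-fold rule. Other alternatives were a 1.5-fold rule, at least 50 reads, no filter with 1 RPM added, and 2 other scalings. Python 3.11.15, numpy 2.4.6, pandas 2.3.3, scipy 1.17.1, matplotlib 3.10.9, R 4.3.3 and edgeR 4.0.16 were used.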

Additional observations from a re-analysis of the deposited data

Results flagged for a closer look

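For 3 tubulin genes the KO over WT ratio had opposite signs in the SC pair and the TTC pair, and this difference was not tested. The log2 ratio in the TTC pair minus that in the SC pair was 0.41 for Tubb2a (counting standard error 0.06), 0.50 for Tuba4a (0.44) and -0.36 for Tubb2b (0.09). Each pair has 1 library per genotype, and the standard errors cover counting error only. Tubb2b, at a log2 ratio of -0.03 in the TTC pair, was at 0.03 with median-of-ratios factors, where its signs no longer differed. Tubb2a, at -0.19 in the SC pair, was at -0.05 with those factors, so its opposite signs also depended on the scaling for their size.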

How the results depend on the processing

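Each condition has 1 library, so there was no replicate to block on or to leave out, and only the additive fit takes code as a block for genotype. With median-of-ratios factors, log2 KO over WT in the SC pair was -0.05 for Tubb2a and 0.41 for Tubb3. SC over TTC in WT was 0.48 for Tubb2a and 0.11 for Tubb3, and 0.49 and 0.12 with the same sum over the listed sites. In KO it was 0.15 for Tubb2a, 0.42 for Tubb3 and 0.07 for Tuba1a, and 0.12, 0.39 and 0.04 with the same sum. The remaining values of the 4 genes moved by less than their counting interval under these scalings. Counts over the whole table depended on the rule. By RPM at 2-fold, lower and higher calls numbered 223 and 123 (SC pair), 173 and 271 (TTC pair), 226 and 195 (WT libraries), and 451 and 160 (KO libraries). At 1.5-fold these were 578 and 336, 505 and 535, 512 and 396, and 894 and 409. With at least 50 reads they were 65 and 17, 46 and 55, 78 and 45, and 152 and 42. Without a filter and with 1 RPM added they were 579 and 536, 507 and 773, 852 and 785, and 791 and 464. With median-of-ratios factors 246 were higher between the KO libraries. With edgeR's quasi-likelihood test on the additive fit (residual degrees of freedom 1), 0 of 2808 transcripts passed an adjusted p of 0.05 for genotype, with 133 lower and 60 higher at an unadjusted p under 0.05, against 43 called in both pairs by the 2-fold rule. For code, 0 of 2808 passed, with 282 lower and 129 higher in SC at an unadjusted p under 0.05. Where the α-tubulin sum was limited to genes with at least 20 reads in every library, Tuba1a held 100% in each library, because it was the only gene left, and the β-tubulin shares moved by less than their interval.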
